A study of Mus musculus with 24 samples.

Results

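The amino acid response was followed in mouse liver through 9 genes: the transcription factors Atf4, Atf5, Atf3 and Ddit3, the enzymes Asns, Psat1 and Phgdh, and the regulators Trib3 and Sesn2. They were chosen by name, as every probe that the array's own annotation gives to one of these 9 gene names, out of 27745 gene names on the array. That gave 13 probes: 3 for Phgdh, 2 each for Trib3 and Sesn2, and 1 for each other gene. Of these, 12 probes covering all 9 genes were bright enough to be tested, among 27825 probes tested in all.

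ATF4 is a leucine zipper transcription factor whose translation rises when the initiation factor eIF2 is phosphorylated, as happens when amino acids run short or unfolded protein collects in the endoplasmic reticulum. It binds composite response elements with C/EBP partners and switches on genes for amino acid uptake and synthesis, together with factors and inhibitors that limit or prolong the response. In liver these genes are known to respond to diet, fasting and mitochondrial or secretory stress.

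The study compared livers of Mop3fxfx mice, which carry a floxed Mop3 gene, with livers of Mop3fxfxCreAlb mice, which carry the same floxed alleles plus a Cre recombinase under the albumin promoter, active in hepatocytes. Mop3 is another name of Arntl (BMAL1), a core activator of the circadian clock. All mice were C57Bl/6J, ate and drank freely under 12 h of light and 12 h of dark, and were 10 or 20 weeks old, and livers were taken at ZT0, 4, 8, 12, 16 and 20, where ZT0 is lights on. Each of the 24 two-colour Agilent arrays compared a pool of RNA from 3 or more mice, alike in genotype, age and time, with a reference pool of liver RNA from 10-week mice of both genotypes, which gives 12 arrays per genotype and 6 per genotype and age. The labels give no group with Cre and without floxed alleles, so the action of Cre and the loss of Mop3 cannot be told apart, and no array repeats a genotype, age and time, so that p-values measure the spread between pools collected at different ages and times. In whole liver, fewer cells of a type and less RNA per cell cannot be told apart.

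Every level below is a log2 ratio of Cy5 over Cy3, read as liver sample over reference. The labels state the reverse, with Cy3 for the sample and Cy5 for the pool. On the 6 slides with more than 1 array, between 85.6% and 94.6% of 20191 bright probes had the wider spread in Cy5. The Asns probe showed the same, with an SD over the 24 arrays of 1.08 in Cy5 and 0.17 in Cy3 (log2 intensity). If the labels held, every sign below would turn and every peak would move by 12 h. The Arntl probe had a median of 0.36 (range -2.18 to 1.13) in floxed livers and of -0.42 (-0.52 to -0.24) in Cre livers at 10 weeks, and of 0.92 (-1.72 to 1.60) and -0.48 (-0.90 to 0.52) at 20 weeks. Its fitted 24 h amplitude was 1.69 ± 0.17 (SE) in floxed livers, peaking at ZT21.8, and 0.22 ± 0.17 in Cre livers. The difference between the fitted courses, in amplitude and peak time together, had an adjusted p of 0.031 (limma moderated F test). Whether that probe lies in the deleted part of the gene was not tested.

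A pair of arrays stood apart. The 20-week Cre array at ZT4 had a mean log2 ratio of 3.95 over 8 tested pancreatic acinar markers, against -0.07 to 0.41 on the floxed arrays and 0.06 to 0.19 on the other Cre arrays. The 10-week Cre array at ZT16 was alone on its slide, was read with another image extraction protocol and was the dimmest of all in both channels. None of 8 hepatocyte markers (Alb, Ttr, Cps1 and others) passed the test for genotype, and their mean ratio ran from -0.56 to 0.11 in floxed and from -0.70 to 0.16 in Cre livers. All 8 were well above background on 24 arrays, but 7 of them were saturated in Cy5 on 17 to 24 arrays, so that a difference in them could be masked. Ttr, with no saturated array, differed by -0.27 ± 0.18 (limma adjusted p = 0.3). Among markers of other cells, each read by its brightest probe, Sox9 and Spp1 of 5 cholangiocyte markers were called higher in Cre livers, as were Lrat and Lum of 7 stellate and fibroblast markers, Lyve1 of 6 endothelial markers and Amy2 of 8 pancreatic markers. The lowest of 3 Sox9 probes was at 0.07, and the other tested probes of Lrat and Lyve1 were at 0.18 and 0.14. Alas2 of 3 red cell markers and Cfd of 3 adipose markers were called lower. None of 7 macrophage, 5 lymphocyte and 2 neutrophil markers was called. These counts stand beside 11.1% of all tested probes called lower and 10.6% called higher in Cre livers. The part of these cells in the results below was not tested.

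The probes are 60-base oligonucleotides printed on the array, and those that carry the results are shown here 5′ to 3′ because 2 genes gave different answers from different probes. Capitals mark the 17 bases that a pair of Phgdh probes share. The position of each probe within its transcript was not analysed here.
Asns: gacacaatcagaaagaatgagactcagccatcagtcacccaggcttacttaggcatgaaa
Trib3 probe 1: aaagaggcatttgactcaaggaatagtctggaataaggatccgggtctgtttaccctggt
Trib3 probe 2: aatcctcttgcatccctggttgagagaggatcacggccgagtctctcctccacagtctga
Sesn2 probe 1: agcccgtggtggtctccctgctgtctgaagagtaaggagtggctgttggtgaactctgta
Sesn2 probe 2: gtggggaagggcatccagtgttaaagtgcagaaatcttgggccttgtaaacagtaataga
Atf5: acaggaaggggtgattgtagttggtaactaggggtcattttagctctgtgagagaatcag
Phgdh probe 1: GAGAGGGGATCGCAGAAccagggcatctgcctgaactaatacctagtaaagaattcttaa
Phgdh probe 2: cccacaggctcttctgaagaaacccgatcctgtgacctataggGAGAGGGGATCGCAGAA

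The first comparison asked how each gene's mean over the day differed between the genotypes. Asns and 1 of the 2 Trib3 probes were 3.01-fold and 2.75-fold lower in Cre livers, and 1 of the 2 Sesn2 probes was slightly lower. None of the 4 transcription factors and neither enzyme of serine synthesis passed the test. Of the 12 probes, 3 were called lower and 0 higher at an adjusted p of 0.05 (limma, Benjamini-Hochberg over all tested probes), and 5 had an unadjusted p under 0.05. Over all 27825 tested probes 11.1% were called lower and 10.6% higher, and 9596 had an unadjusted p under 0.05. The median difference was -0.06 over the 12 probes and -0.01 over all tested probes.

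**Figure D1:**
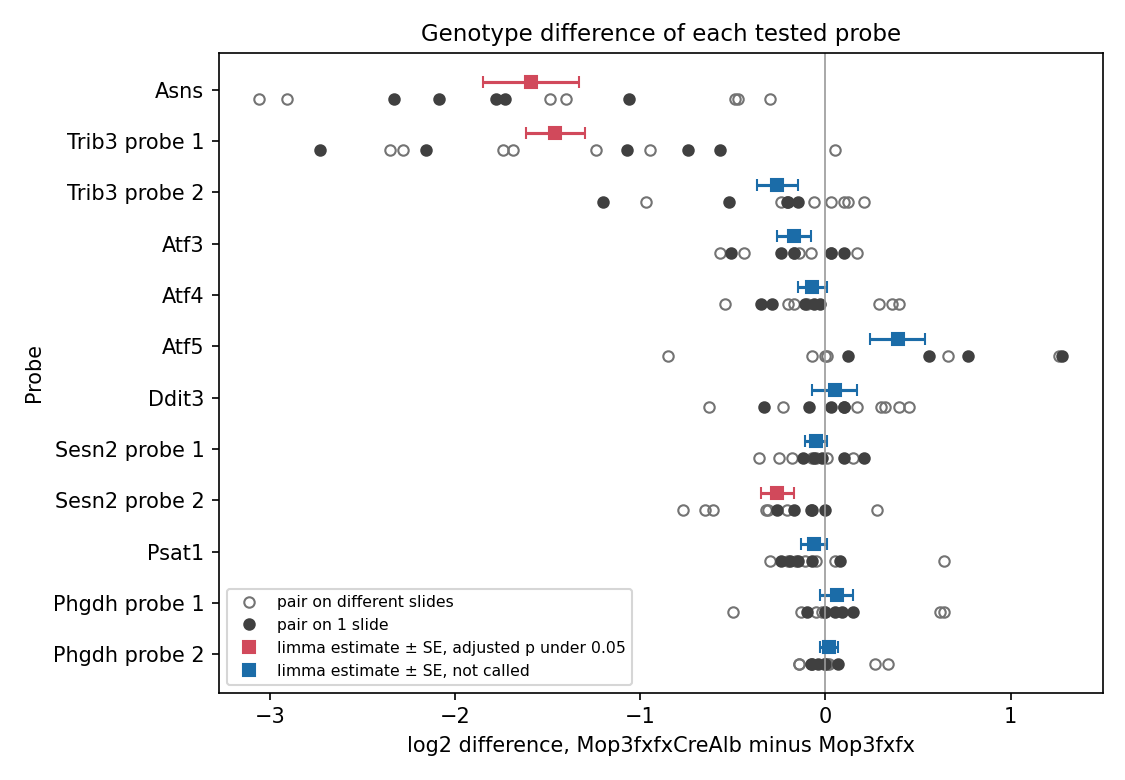
Difference between genotypes (log2, Mop3fxfxCreAlb minus Mop3fxfx) for each of the 12 tested probes: squares are limma estimates with their SE, and circles are the pairs of arrays matched by age and time, filled where both arrays lie on 1 slide. All 12 Asns pairs and 11 of 12 pairs of Trib3 probe 1 lie below 0, while the pairs of the other probes lie on both sides of 0.

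Among the transcription factors, Atf4 itself, at chr15:80255184-80257545 (GRCm38.p6), was not called for genotype. Its log2 ratio ran from -0.31 to 0.42 with a median of 0.10 in floxed livers and from -0.69 to 0.31 with a median of 0.06 in Cre livers (n = 12 each). The ranges overlapped almost wholly, and the difference of -0.07 ± 0.08 (SE) did not pass the test (limma adjusted p = 0.57). On shared slides Cre was lower in 5 of 5 pairs. The mean differences within the 4 slides with both genotypes were -0.15, -0.09, -0.16 and -0.62. Times were not matched on the first and last of these slides. The first held floxed ZT0 and ZT16 with Cre ZT0, and the last floxed ZT16 and ZT20 with Cre ZT0 and ZT4. Slide as a fixed block gave -0.27 ± 0.09 (adjusted p = 0.082) and scan date as a block -0.26 ± 0.09 (adjusted p = 0.075). The size of the Atf4 difference thus depended on the block, and it passed the test in neither fit. The probe reads Atf4 mRNA, whereas the factor is known to be controlled mainly at translation.

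Atf5 (chr7:44812256-44816658), a factor of the same family that responds to amino acid and mitochondrial stress, was the brightest of the 13 probes, with a median Cy5 intensity of 39200. In floxed livers the ratio ran from -1.44 to 0.67 with a median of -0.46 on 10 arrays, since the spot carried an outlier mark on the 10-week arrays at ZT0 and ZT16 and was left out there. In Cre livers it ran from -0.35 to 0.63 with a median of -0.05 on 12 arrays. The floxed arrays thus spread wider than the Cre arrays and reached lower, and 7 of 10 matched pairs were higher in Cre livers, including all 4 on a shared slide. The difference of 0.39 ± 0.15 did not pass the test (adjusted p = 0.076), and the spot was saturated in Cy5 on 2 Cre arrays and in Cy3 on 2 arrays. It passed under 4 of 17 other settings, such as the authors' own log ratio (0.42, adjusted p = 0.039) and scan date as a block (0.63, adjusted p = 0.03), and in 2 of 24 fits that left out 1 array: without the 10-week floxed ZT8 array (0.46, adjusted p = 0.035) and without the 20-week Cre ZT8 array (0.45, adjusted p = 0.046).

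Ddit3 (CHOP, chr10:127290793-127296291), a factor that promotes death in prolonged endoplasmic reticulum stress, ran from -0.68 to 0.49 in floxed and from -0.38 to 0.17 in Cre livers, with medians of -0.41 and -0.21. Atf3 (chr1:191170296-191183333), an early stress-induced factor, ran from -0.31 to 0.65 in floxed and from -0.28 to 0.11 in Cre livers, with medians of 0.10 and -0.04. For both genes the Cre range lay inside the floxed range. The differences were 0.05 ± 0.12 for Ddit3 (adjusted p = 0.81) and -0.17 ± 0.09 for Atf3 (adjusted p = 0.19). The Atf3 probe was dim, with a median Cy5 intensity of 181 against a local background of 56, which limits what it could show.

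Asns (chr6:7675165-7693209) encodes asparagine synthetase, which makes asparagine from aspartate and glutamine and is a standard readout of ATF4. At 10 weeks its log2 ratio ran from -0.27 to 0.92 with a median of 0.75 in floxed livers, and from -1.66 to 0.45 with a median of -1.18 in Cre livers. At 20 weeks it ran from -1.37 to 1.43 with a median of -0.11 in floxed livers, and from -2.05 to -1.06 with a median of -1.58 in Cre livers. The ranges overlapped at each age through single arrays: the 10-week Cre array at ZT16, which at 0.45 was the only Cre array above 0, and the 20-week floxed array at ZT12, at -1.37.

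The log2 difference of Asns over the day was -1.59 ± 0.26, lower in Cre livers (limma adjusted p = 0.00025), and Cre was the lower array in 12 of 12 pairs matched by age and time. The difference was -1.58 ± 0.25 in the 10-week arrays alone (adjusted p = 0.016) and -1.61 ± 0.41 in the 20-week arrays alone (adjusted p = 0.019). The 5 pairs that share a slide ran from -2.33 to -1.06, and a fit of those pairs alone gave -1.80 ± 0.16 (adjusted p = 0.0017). Within the 4 slides that hold both genotypes the mean differences were -1.90, -1.40, -2.21 and -2.99, with times unmatched on the first and last. The last slide set floxed ZT16 and ZT20, the highest 20-week floxed arrays, against Cre ZT0 and ZT4. Without the array alone on its slide and the array with pancreatic markers it was -1.76 ± 0.25 (adjusted p = 8.6e-05). Asns was thus lower in Cre livers at both ages, on every slide with both genotypes and with or without the arrays that stand apart. At 20 weeks, however, no matched pair shared a slide. A slide held 4 floxed arrays, another held 4 Cre arrays, and the mixed slide had unmatched times. Genotype therefore cannot be told apart from slide and time at that age.

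**Figure D2:**
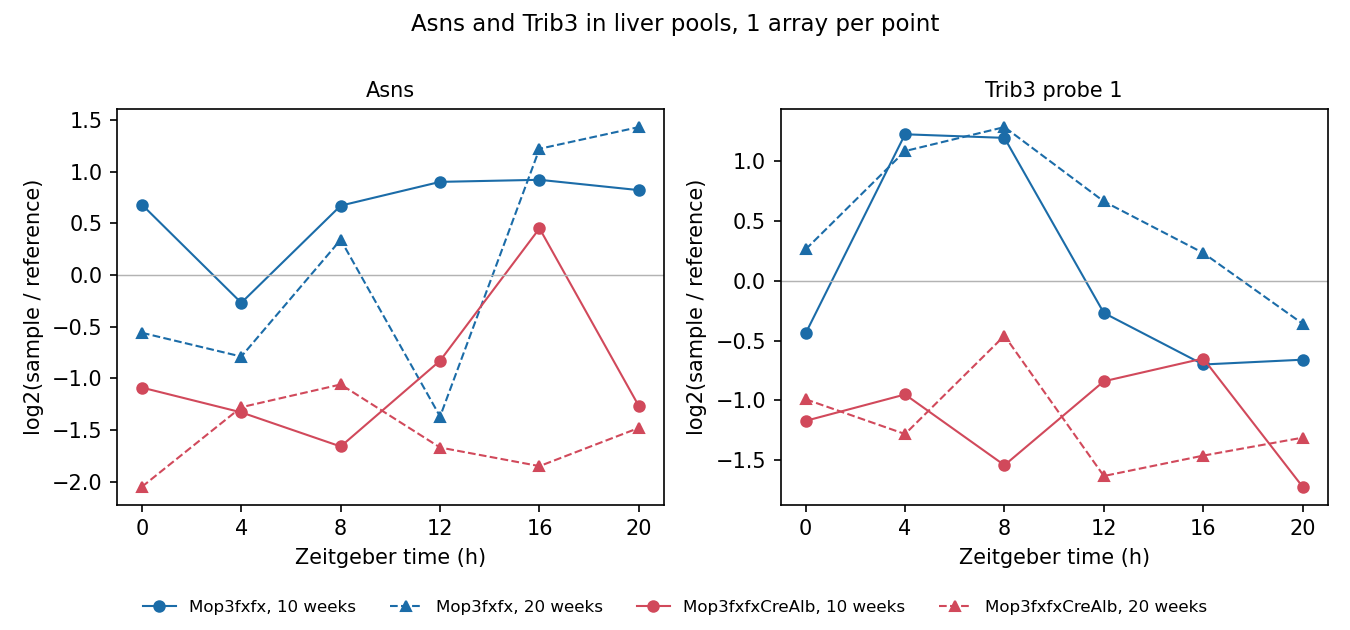
Log2 ratio of liver sample over reference for Asns and Trib3 probe 1 against zeitgeber time (h), with 1 array per point, colours for genotype, and circles with solid lines for 10 weeks or triangles with dashed lines for 20 weeks. Cre livers lie below floxed livers of the same age at all 6 times for Asns, and Trib3 probe 1 in floxed livers is highest at ZT4 and ZT8 at both ages.

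Phgdh (chr3:98313171-98339969) and Psat1 (chr19:15905123-15925059) encode the enzymes of the opening steps of serine synthesis. Both probes were dim, with median Cy5 intensities of 173 for Phgdh probe 1 and 120 for Psat1 against local backgrounds of 53.0 and 51.5, and the offset of 50 added to every signal draws the ratios of dim spots towards 0. Psat1 ran from -0.28 to 0.26 in floxed and from -0.35 to 0.45 in Cre livers, a difference of -0.06 ± 0.07 (adjusted p = 0.58). Phgdh probe 1 ran from -0.30 to 0.21 and from -0.36 to 0.66, a difference of 0.06 ± 0.09 (adjusted p = 0.67). Phgdh probe 2, which shares 17 bases with probe 1, differed by 0.02 ± 0.05 (adjusted p = 0.81), and the correlation of the pair was 0.85 over the 24 arrays. Probes 1 and 2 were at 0.66 and 0.31 on the 20-week Cre ZT4 array with pancreatic markers. They were at 0.34 and 0.22 on the 10-week Cre ZT16 array. Without these arrays, which stand apart, the differences were -0.04 ± 0.06 and -0.02 ± 0.04, and the correlation was not computed. Phgdh probe 3 was well above background in Cy3 on 1 array and in Cy5 on 5 of 24 arrays and was not tested. No difference was thus detectable in either gene at this brightness.

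Trib3 (chr2:152337425-152344060) encodes a pseudokinase that is induced by ATF4 and DDIT3, feeds back on both and binds AKT. At 10 weeks probe 1 ran from -0.70 to 1.22 with a median of -0.35 in floxed livers, and from -1.72 to -0.65 with a median of -1.06 in Cre livers. At 20 weeks it ran from -0.36 to 1.28 with a median of 0.46, and from -1.63 to -0.46 with a median of -1.29. The genotypes did not overlap at 20 weeks, and at 10 weeks they overlapped only where the floxed arrays at ZT16 (-0.70) and ZT20 (-0.66) met the Cre array at ZT16 (-0.65).

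The mean difference of Trib3 probe 1 was -1.46 ± 0.16 (limma adjusted p = 2.4e-06), with Cre lower in 11 of 12 pairs and in 5 of 5 pairs that share a slide. The difference was -1.20 ± 0.22 at 10 weeks (adjusted p = 0.03) and -1.71 ± 0.16 at 20 weeks (adjusted p = 5e-04), each age fitted alone. As for Asns, genotype at 20 weeks cannot be told apart from slide and time. Within the 4 slides that hold both genotypes the mean differences were -0.60, -1.37, -1.90 and -1.07, with times unmatched on the first and last. The 5 pairs on shared slides alone gave -1.45 ± 0.31 (adjusted p = 0.035), and leaving out both arrays that stand apart gave -1.50 ± 0.14 (adjusted p = 1e-06).

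Trib3 probe 2, annotated to the same transcript, had a smaller difference of the same sign. It ran from -0.32 to 1.06 with a median of -0.01 in floxed livers and from -0.41 to 0.08 with a median of -0.12 in Cre livers. The floxed arrays at ZT8 of 10 weeks (1.06), ZT0 of 20 weeks (0.66) and ZT4 of 10 weeks (0.41) stood far above the highest Cre array, at 0.08. Its difference of -0.26 ± 0.11 did not pass the test (adjusted p = 0.099), although Cre was lower in 5 of 5 pairs on shared slides. The median Cy5 intensity was 174 for probe 2 and 324 for probe 1, and the correlation of their ratios was 0.49 over 24 arrays. A fall in Trib3 is therefore reported for probe 1 only.

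Sesn2 (chr4:132492804-132510456) encodes sestrin 2, a leucine sensor that restrains the growth kinase mTORC1. Probe 1 ran from -0.36 to 0.35 in floxed and from -0.21 to 0.33 in Cre livers, a difference of -0.05 ± 0.06 that did not pass the test (adjusted p = 0.58). Probe 2, annotated to another transcript record (AK170547), ran from -0.70 to 0.40 with a median of -0.04 in floxed and from -0.72 to -0.04 with a median of -0.38 in Cre livers. All 12 Cre arrays of probe 2 were below 0, but the floxed range covered all except the lowest of them. Its difference of -0.26 ± 0.09 was called (adjusted p = 0.043), with Cre lower in 10 of 12 pairs.

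The call on Sesn2 probe 2 did not hold in every setting. It was -0.05 in the 10-week arrays alone (adjusted p = 0.86) and -0.10 with slide as a block (adjusted p = 0.72). Within slides it was 0.28, -0.22, -0.07 and 0.03, with times unmatched on the first and last. In 13 of the 24 fits that left out 1 array the adjusted p was 0.05 or above, up to 0.084.

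**Figure D3:**
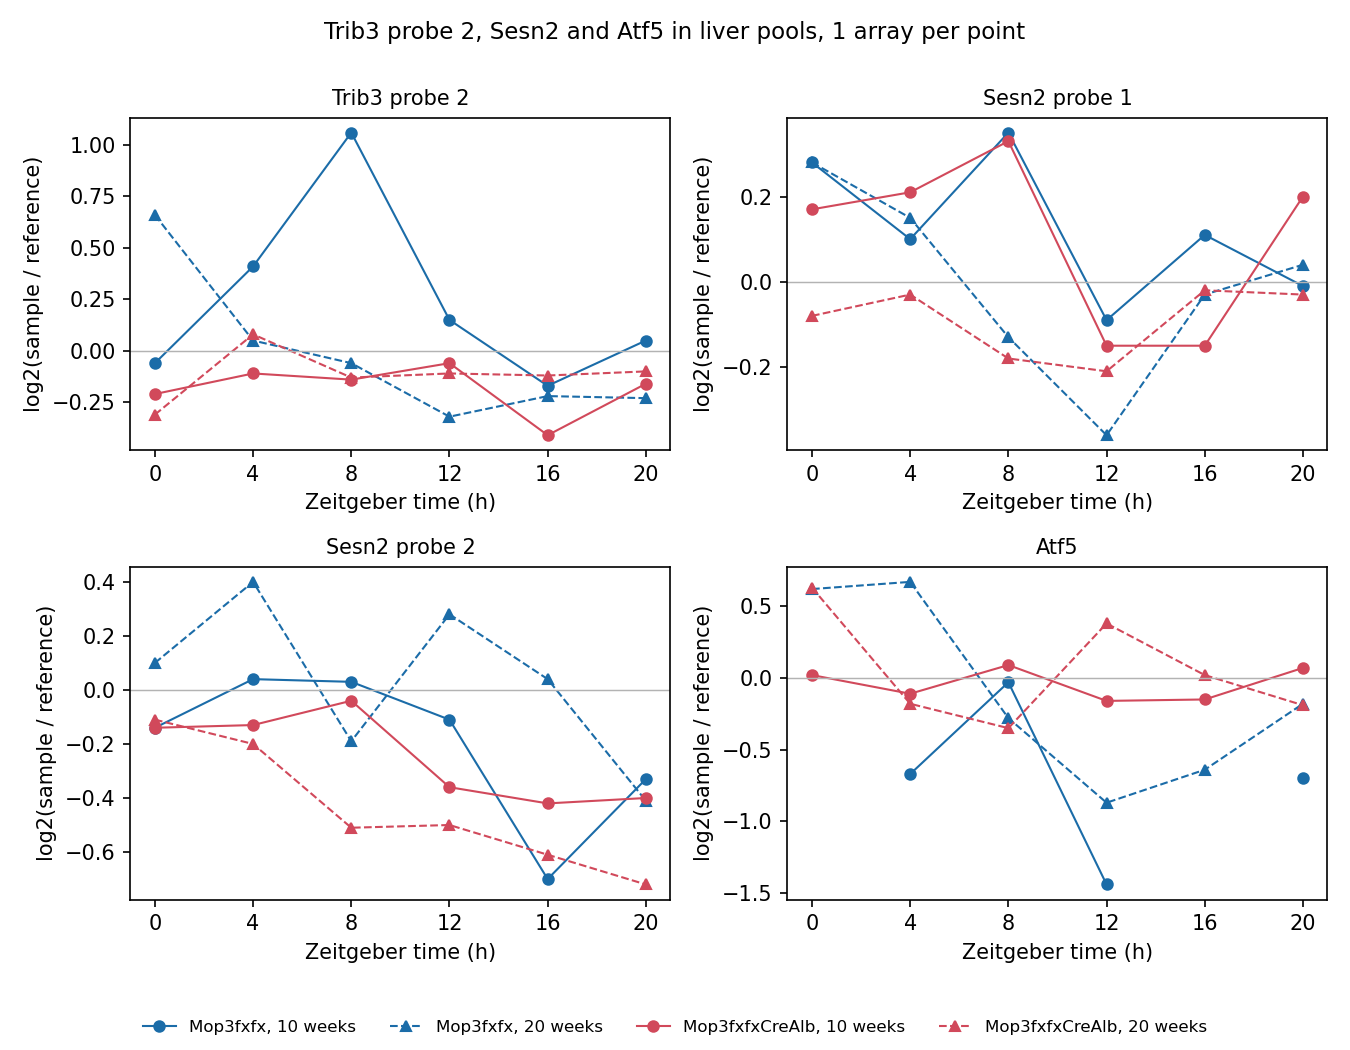
Log2 ratio of liver sample over reference for Trib3 probe 2, both Sesn2 probes and Atf5 against zeitgeber time (h), 1 array per point, with colours and symbols for genotype and age as given in the legend and each panel on its own scale. The 10-week floxed ZT8 array reaches 1.06 for Trib3 probe 2, the Cre arrays of Sesn2 probe 2 lie between -0.72 and -0.04, and the 10-week floxed arrays at ZT0 and ZT16 are missing for Atf5.

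The second comparison asked how the genes followed the time of day. Trib3 probe 1 was the only member probe called rhythmic in floxed livers. Its highest values were at ZT4 (1.22 and 1.08) and ZT8 (1.19 and 1.28) at 10 and 20 weeks, and its lowest at ZT16 (-0.70) at 10 weeks and at ZT20 (-0.36) at 20 weeks. The fitted 24 h amplitude was 0.92 ± 0.16 (log2, from the mean of the fit to its peak) with its peak at ZT6.7 ± 0.7 h, and the adjusted p was 0.0086 (limma moderated F test). In Cre livers the fitted amplitude was 0.14 ± 0.16. Over all tested probes 1.4% were called rhythmic in floxed livers. An unadjusted p under 0.05 was found for 5 of the 12 probes and for 3219 of all 27825 tested probes. The call on Trib3 probe 1 was lost with slide as a fixed block (amplitude 0.87, adjusted p = 0.055) and in each age alone (1.09 and 0.76, adjusted p = 0.35 and 0.27).

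Atf5 had the next largest amplitude in floxed livers, 0.69 ± 0.14 with a peak at ZT2.0, which did not pass the test (adjusted p = 0.073). Its 20-week floxed arrays at ZT0 and ZT4 were at 0.62 and 0.67, and the floxed arrays at ZT12 were at -1.44 and -0.87. In Cre livers the amplitude was 0.08 ± 0.14. The floxed rhythm of Atf5 was called in only 1 of 24 fits that left out 1 array (0.91, adjusted p = 0.0056). That fit lacked the 10-week floxed ZT4 array, at -0.67. Over the 24 fits the amplitude ran from 0.60 to 0.91, with an adjusted p of up to 0.25. Among 14 other settings 3 called it.

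Asns varied widely between floxed arrays, and no rhythm was called. At ZT12 it was 0.90 at 10 weeks and -1.37 at 20 weeks. Both ages were high at ZT16 (0.92 and 1.22) and ZT20 (0.82 and 1.43) and lower at ZT4 (-0.27 and -0.79). The fitted amplitude of 0.64 ± 0.26, peaking at ZT17.6, did not pass the test (adjusted p = 0.47), and it was 0.25 ± 0.26 with slide as a fixed block. The 20-week floxed arrays at ZT0 to ZT12 shared 1 slide and those at ZT16 and ZT20 another, so time and slide cannot be told apart there. The remaining probes had fitted amplitudes from 0.04 to 0.31 in floxed livers. In Cre livers no member probe was called, none had an unadjusted p under 0.05, and limma called 0 (0%) of all tested probes although 2400 had an unadjusted p under 0.05. The largest Cre amplitude among the members was 0.27 ± 0.26, for Asns.

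The difference of rhythm between the genotypes was itself tested. None of the 12 probes was called. Of all 27825 tested probes 802 had an unadjusted p under 0.05, and so had 3 of the 12. These were Trib3 probe 1, whose fitted courses differed by an amplitude of 0.78 ± 0.22, Atf5 (0.65 ± 0.20) and Atf4 (0.29 ± 0.11). Each had an adjusted p of 1, and 0.0288% of all tested probes were called. A change of daily rhythm in these genes is therefore not shown.

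**Figure D4:**
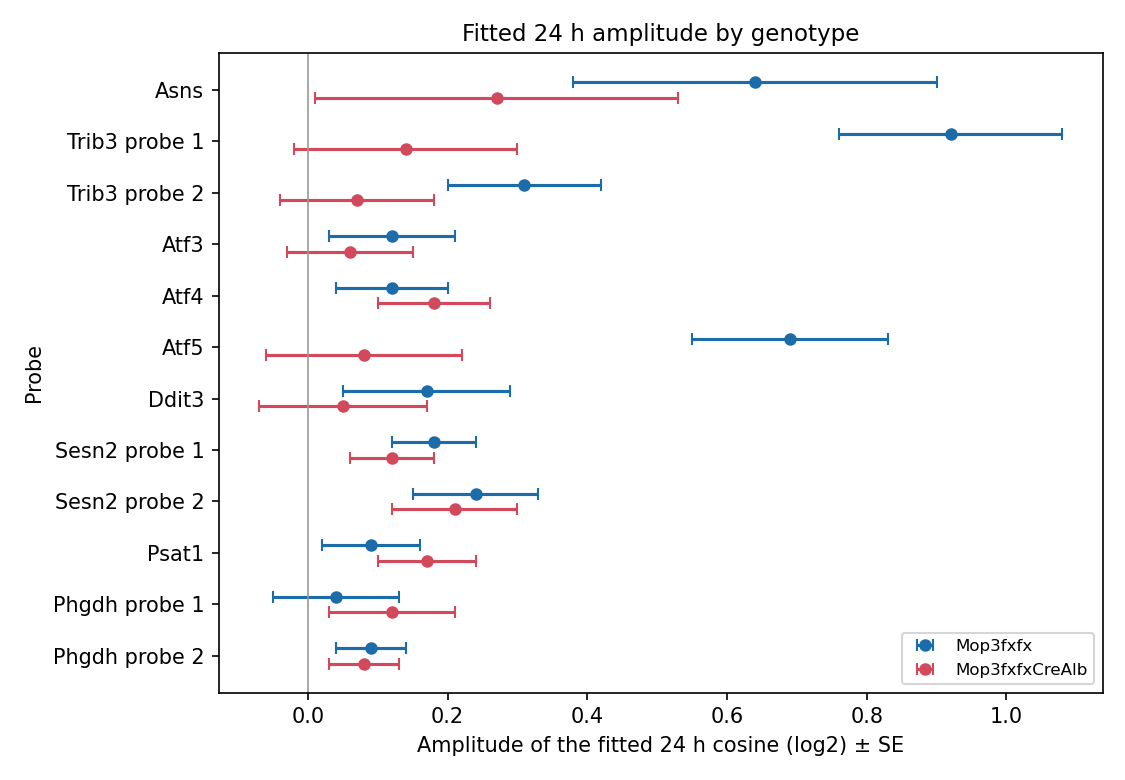
Amplitude of the fitted 24 h cosine (log2, with SE) for each of the 12 tested probes in Mop3fxfx and Mop3fxfxCreAlb livers (12 arrays each, 10 for Atf5 in floxed livers). Trib3 probe 1 (0.92 and 0.14) and Atf5 (0.69 and 0.08) have the widest gaps between the genotypes. The test compared the fitted courses, in amplitude and peak time together, and none passed after adjustment. The gap in amplitude alone was not tested.

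Taken time by time, with 2 arrays per genotype, Trib3 probe 1 at ZT8 was the only call, at -2.23 ± 0.41 (adjusted p = 0.033), which is 4.69-fold lower. At ZT4 it was -2.26 ± 0.41 (adjusted p = 0.059), at ZT12 -1.43 (0.19), at ZT0 -0.99 (0.53), at ZT20 -1.01 (0.6) and at ZT16 -0.82 (0.43). The widest gaps stood at ZT4 and ZT8, where floxed livers were highest, and whether the gap varied over the day is the test of rhythm difference above, which was not passed. The ZT8 call was lost without either floxed ZT8 array (adjusted p = 0.33 and 0.2) or the 10-week Cre ZT8 array (-1.76, adjusted p = 0.53), and narrowly without the ZT0 Cre array or the ZT20 floxed array of either age (adjusted p = 0.051 and 0.056). With about the same difference it was also lost with slide as a fixed block (-2.13, adjusted p = 0.1), with scan date as a block (-2.19, adjusted p = 0.061), without a filter (-2.23, adjusted p = 0.061) and without both 20-week ZT0 arrays (-2.23, adjusted p = 0.06). Asns was lower in Cre livers at each time, from -0.78 at ZT4 to -2.50 at ZT20, and none of these differences passed (adjusted p from 0.26 to 0.93). Over all tested probes 0.0935% were called at ZT0, 0.115% at ZT4, 0.37% at ZT8, 0.428% at ZT12, 0.334% at ZT16 and 0.104% at ZT20.

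With age, Atf4 was lower at 20 than at 10 weeks by -0.24 ± 0.08 (adjusted p = 0.023), and Sesn2 probe 1 by -0.17 ± 0.06 (adjusted p = 0.047). In floxed livers the median of Atf4 was 0.18 at 10 and -0.10 at 20 weeks, and in Cre livers it was 0.06 and -0.01, with overlapping ranges in both. These 2 of 12 calls stand beside 30.5% of all tested probes called for age. Each slide held mice of 1 age, so age and slide cannot be told apart, and with slide as a random block neither was called (adjusted p = 0.15 and 0.28). The Sesn2 call was also lost in 16 of 24 fits that left out 1 array, and the Atf4 call without both arrays that stand apart (adjusted p = 0.052). A change of the genotype difference with age passed the test in limma for none of the 12 probes, against 9.05% of all tested probes called. An unadjusted p under 0.05 was found for 1 of the 12 (Sesn2 probe 2, -0.43 ± 0.16, adjusted p = 0.086) and for 7425 of all 27825 tested probes. For Asns the change was -0.03 ± 0.53 and for Trib3 probe 1 -0.51 ± 0.30.

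Promoter sequence was not read when the genes were chosen. They were chosen as amino acid response and ATF4 target genes, so a match to the ATF4 element is not independent of the choice. The RefSeq windows of GRCm38.p6, from 250 bases before to 50 after each start, matched all 9 genes, with 11 windows among them. They were searched on both strands for TGATGNAA, a core form of the C/EBP-ATF response element bound by ATF4, and for CACGTG, the canonical E-box bound by the BMAL1 dimer. TGATGNAA occurred in 3 of 9 genes, Asns, Trib3 and Atf3, each with a single window, and in 3.97% of all 32851 windows. CACGTG occurred in 0 of 9 genes and in 7.15% of windows, which says only that these letters are not in these windows. The stretches from 120 bases before to 30 after the start are shown for the 3 genes, all on the minus strand, with the match in capitals.
Asns, chr6:7693180-7693329: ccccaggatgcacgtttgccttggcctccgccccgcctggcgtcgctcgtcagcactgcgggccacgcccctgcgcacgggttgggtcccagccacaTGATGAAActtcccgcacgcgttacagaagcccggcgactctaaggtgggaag
Trib3, chr2:152344031-152344180: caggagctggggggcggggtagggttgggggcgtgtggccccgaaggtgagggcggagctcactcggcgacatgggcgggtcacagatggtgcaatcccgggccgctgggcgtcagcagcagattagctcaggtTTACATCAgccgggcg
Atf3, chr1:191183304-191183453: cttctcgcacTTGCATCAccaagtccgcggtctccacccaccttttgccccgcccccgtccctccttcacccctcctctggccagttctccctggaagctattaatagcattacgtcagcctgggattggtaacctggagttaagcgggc
The match lies at positions -23 to -16 from the start in Asns, at 15 to 22 in Trib3 and at -110 to -103 in Atf3, on the opposite strand in the last pair. Asns and Trib3 probe 1 were lower in Cre livers and Atf3, read by a dim probe, did not pass the test. A match is no evidence of binding.

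Other genes of the pathway moved in both directions. The counts of each list below stand beside 11.1% of all tested probes called lower and 10.6% called higher in Cre livers. Of 34 further genes known as amino acid response targets, 30 were tested (brightest probe of each), 9 were called lower and 2 higher in Cre livers, and the median difference was -0.08. The 4 called with the smallest p were all lower: Slc6a9, a glycine transporter (-0.70 ± 0.10, adjusted p = 3.9e-05), Gpt2, an alanine aminotransferase (-0.62 ± 0.10, adjusted p = 0.00023), Eif4ebp1, a repressor of cap-dependent translation (-0.65 ± 0.12, adjusted p = 0.0011), and Slc38a2, a neutral amino acid transporter (-0.54 ± 0.13, adjusted p = 0.007). Other tested probes of Eif4ebp1 and Slc38a2 reached -0.11 and 0.20. The 2 called higher were Ddit4, an inhibitor of mTORC1 (0.84 ± 0.23), and Psph, which ends serine synthesis (0.48 ± 0.13).

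The aminoacyl-tRNA synthetases, which charge tRNAs and are ATF4 targets in part, had 2 of 19 called higher, Tars (0.45 ± 0.08) and Lars (0.42 ± 0.11), and 2 lower, Nars (-0.48 ± 0.12) and Wars (-0.40 ± 0.14), with a median of -0.03. Other tested probes reached -0.03 for Lars and -0.11 for Wars. Of 14 eIF2 kinases and regulators, 3 were called higher and 3 lower, with a median of -0.09. The 4 with the smallest p were Eif2s2 (0.30 ± 0.06) and the kinase Eif2ak2 (0.26 ± 0.06), both higher, though another Eif2s2 probe was at 0.09, and Eif2b1 (-0.35 ± 0.07) and Impact (-0.32 ± 0.08), both lower. Of 19 genes of endoplasmic reticulum stress, Xbp1 (-0.56 ± 0.16) and Calr (-0.49 ± 0.14) were called lower and none higher, and the second Calr probe was at -0.01.

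Among 15 tested enzymes of serine, glycine and one-carbon metabolism, Tyms (0.47 ± 0.11), Psph and Cbs (0.33 ± 0.12) were called higher and Shmt2 (-0.51 ± 0.13) lower, with a median of 0.11, and another Tyms probe was at -0.26. Among 23 enzymes of amino acid breakdown and the urea cycle, 5 were called lower and 2 higher, with a median of -0.08. The 4 with the smallest p were Asl (-0.89 ± 0.13), which releases arginine in the urea cycle, Agxt (0.53 ± 0.11), Bckdha (-0.43 ± 0.09) and Got2 (-0.51 ± 0.11), and Agxt was saturated in Cy5 on 13 arrays. The second Bckdha probe was at 0.16. Among 17 relatives of the members, Trib1 (-0.53 ± 0.09) and Creb3l3 (-0.35 ± 0.08) were called lower and Sesn3 (0.47 ± 0.10) higher, its 3 probes from 0.12 to 0.60, with a median of -0.01.

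The members themselves did not follow each other closely. Across the 24 arrays, which share genotype, slide and time, the correlation of Asns with Trib3 probe 1 was 0.47 and with Atf4 0.52. With Atf5 it was -0.49, without the 2 floxed arrays on which the Atf5 spot was left out. Trib3 probe 1 and Sesn2 probe 2 had the highest correlation between different genes, at 0.63. The genes most like Asns were Tff3, a mucosal trefoil peptide (r = 0.89), Fhad1 (0.88), Hspb1, a small heat shock protein (0.86), Capn8 (0.86) and Abcb1b, a drug exporter (0.84). Those most like Trib3 probe 1 were Aim1l (0.94), Arsa, a lysosomal sulfatase (0.92), Mterfd3 (0.90), Slc2a5, the fructose transporter (0.89), and C77080 (0.88). Those most like Sesn2 probe 2 were Adamts7, 1500035H01Rik and ORF19 (each 0.78), Gpd2 (0.77) and Car9 (0.76).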

How the data were processed

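Total liver RNA of pooled mice was hybridised to 24 two-colour Agilent arrays, and the members and gene lists were chosen with earlier results of these data known. The deposited scanner files hold, per the file headers, mean and background intensity of 45018 spots per channel from Agilent Feature Extraction (version 9.1.3.1 in the submitters' processing notes). The log10 ratio in the same deposited files is Cy5 over Cy3 after normalisation by the authors' software, and the deposited series matrix repeats it (largest difference 0, median 0 on each array). Quality flags are other columns of the authors' files.

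Intensities were corrected with normexp (offset 50), and ratios were normalised within arrays by loess, with weight 0 for the 1639 control spots, in log2 units. Outlier spots were dropped, spots of a probe were averaged, and 27825 of 41174 probes with Cy3 well above background on at least 4 arrays were kept. Between 56.7% and 70.3% of probes were well above background in Cy5, and precision is limited by how few arrays there are. limma 3.58.1 (R 4.3.3) fitted, per genotype, a mean, a cosine and a sine of 24 h, with age as a term. Separate models held age by genotype and each time. P-values were adjusted by Benjamini-Hochberg over all tested probes, with a threshold of 0.05, and the fits were tested on simulated data. Pairs of arrays share age and time, and same-slide pairs are the 5 at 10 weeks that also share a slide.

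All member probes are named. Each list names the 4 called genes of smallest p, others are named after their values were seen, and likeness is the highest Pearson correlation over the 24 arrays, 5 genes per called probe. Alternatives changed the background correction, normalisation, filter, probe choice, block (slide, scan date, collection), weights, time terms and arrays used. After seeing the data, a fit without both arrays that stand apart and a fit of the same-slide pairs alone were added.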

Additional observations from a re-analysis of the deposited data

Results flagged for a closer look

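Among 48 groups of one probe, genotype and age, 3 held an array far from the others by Dixon's test, where chance gives about 1 in 20. Asns in 10-week floxed livers was -0.27 at ZT4, against 0.67 for the next lowest array. Ddit3 in 20-week floxed livers was 0.08 at ZT0, against -0.40 for the next highest. Phgdh probe 2 in 10-week Cre livers was 0.22 at ZT16, against 0.03 for the next highest, on the array that is alone on its slide.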

How the results depend on the processing

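Asns and Trib3 probe 1 were lower in Cre livers and passed the test for genotype in all 17 alternatives and in all 24 fits without 1 array. Asns ranged from -2.05 to -1.58 and from -1.77 to -1.49, and Trib3 probe 1 from -1.99 to -1.20 and from -1.54 to -1.38. The alternative that equalised mean log intensities between arrays leaves log ratios as they are, and so repeated the main fit. The filter and brightest-probe settings left both estimates at their main values, -1.59 and -1.46. The count of probes called for genotype stayed between 2 and 4 of 12, and was 3 with collection (age and time) as a block. Sesn2 probe 2 kept its sign in 16 alternatives, from -0.48 to -0.05, and was called in 7. Ddit3, Psat1, Sesn2 probe 1 and both Phgdh probes, none of them called, changed sign or reached 0 in 1 to 5 alternatives each. No probe was called for a rhythm in Cre livers or for a difference of rhythm in any of 14 alternatives or 24 fits without 1 array.

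The other counts were small and moved, and the cause was not tested. The count for rhythm in floxed livers, 1, became 2 with array weights, with scan date as a block and with slide as a random block, where Atf5 passed too, and 0 with slide as a fixed block and in the 10-week or the 20-week arrays only. The count over the 6 times, 1, became 2 with the authors' LogRatio and with slide as a random block, 3 without background subtraction and with array weights, and 0 without a filter, with slide as a fixed block and without both 20-week ZT0 arrays. The count for age, 2, became 0 with slide as a random block and without both 20-week ZT0 arrays, and 1 without a filter and without both arrays that stand apart. That for age by genotype, 0, became 2 without both 20-week ZT0 arrays. In the fits without 1 array the counts ranged from 2 to 4 for genotype, 1 to 2 for rhythm in floxed livers, 0 to 2 over the 6 times, 1 to 3 for age and 0 to 1 for age by genotype. Age could not be fitted beside slide or scan date as a fixed block. No paired analysis by replicate number was possible because the labels give none. Dim probes, saturation of Atf5 and 2 arrays per genotype and time limit what could be detected.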
